A study of Mus musculus with 10 samples.

Results

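IgE heavy-chain transcripts were examined in the deep cervical lymph nodes of mice carrying gliomas. The compartment was taken as every productive heavy-chain sequence with an IGHV gene whose constant gene was called IGHE, the gene of the epsilon chain. There were 1046 such sequences among 313384 productive heavy-chain sequences, and they formed 274 clonotypes among 282268, or 0.0971%. Sequences of a class that agreed in V gene, J gene and junction nucleotides were counted as 1 clonotype. One found in several mice was given to the mouse with most counts of it. The 10 animals were C57BL/6 wild-type mice that had all received GL261 cells, a mouse glioma line of the same strain, into the brain. The 5 isotype mice were then treated with isotype control IgG and the 5 anti-CTLA-4 mice with an antibody that blocks CTLA-4, an inhibitory receptor of T cells. Nodes were taken on day 20, and each mouse gave 1 bulk receptor library, so the mouse was the replicate. The labels used here gave no age, sex or dose, and no mouse without tumour was among the samples. The class was read from the constant gene of the sequence itself, and the libraries held receptor transcripts alone, so no other marker of the cells was measured.

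IgE is the rarest serum class and is best known for arming mast cells and basophils through the high-affinity IgE receptor. B cells reach it by class switch recombination, a DNA deletion that joins the rearranged V, D and J segments to a new constant gene, with help from T cells that make IL-4. The switch can run directly from IgM, or sequentially through IgG1, whose constant gene also responds to IL-4. IgE cells formed directly tend to carry few V mutations, whereas those formed from IgG1 memory cells can inherit mutations made earlier in germinal centres. Most IgE cells become short-lived plasma cells, whose receptor transcripts greatly outnumber those of a resting B cell. Since each library was made from bulk RNA, more cells of a class and more RNA per cell cannot be told apart.

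The junctions of the most counted IgE clonotypes are given first, because the same few rearrangements recur in every result below. A junction runs from the codon of the conserved cysteine at the end of the V segment to that of the conserved tryptophan in the J segment. Capitals mark bases that the deposited alignments gave to neither the V nor the J gene, that is the D segment and added nucleotides. The first 4 were the most counted of isotype replicate 3, and the fifth led anti-CTLA-4 replicate 2.
IGHV1-47 with IGHJ3: tgtgcaTTACTACggtttgcttactgg
IGHV9-3 with IGHJ4: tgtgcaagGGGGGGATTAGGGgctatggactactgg
IGHV1-19 with IGHJ4: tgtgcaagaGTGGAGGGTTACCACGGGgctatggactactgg
IGHV10-1 with IGHJ1: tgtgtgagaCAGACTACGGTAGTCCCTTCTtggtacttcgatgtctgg
IGHV1-78 with IGHJ3: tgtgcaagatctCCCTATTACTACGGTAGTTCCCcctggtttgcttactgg

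The leading IgE junctions of the other 7 mice with IgE, after assignment of shared clonotypes, follow to show the rearrangement that led in each animal. They are given in the order of the isotype and then the anti-CTLA-4 replicates.
IGHV8-12 with IGHJ4, isotype replicate 1: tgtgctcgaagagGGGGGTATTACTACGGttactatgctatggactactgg
IGHV1-50 with IGHJ4, isotype replicate 2: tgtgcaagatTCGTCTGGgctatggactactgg
IGHV9-3 with IGHJ4, isotype replicate 4: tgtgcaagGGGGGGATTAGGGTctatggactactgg
IGHV1-64 with IGHJ1, isotype replicate 5: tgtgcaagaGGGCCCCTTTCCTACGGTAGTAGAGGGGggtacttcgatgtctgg
IGHV1-69 with IGHJ1, anti-CTLA-4 replicate 1: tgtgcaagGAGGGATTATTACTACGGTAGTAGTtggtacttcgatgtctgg
IGHV14-2 with IGHJ4, anti-CTLA-4 replicate 3: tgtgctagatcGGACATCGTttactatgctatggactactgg
IGHV5-9 with IGHJ4, anti-CTLA-4 replicate 5: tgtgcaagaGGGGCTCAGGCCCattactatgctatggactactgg
The junction of isotype replicate 4 differed by 1 base from the IGHV9-3 junction of isotype replicate 3 and was also present in that mouse. It led in replicate 4 only after assignment, with a count of 1386. Before it, the IGHV9-3 and IGHV1-47 junctions given above had counts of 4778 and 4301 in that library.

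Per mouse the tables listed 33568 to 63017 sequences, with counts that summed to 382184 to 790139. Between 20703 and 41218 classed heavy-chain clonotypes per mouse remained after assignment. The counts may stand for reads or for molecules, which the sources used here do not state, so the intervals and limits cover nothing but counting error.

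Some IgE rearrangements were found in more than 1 mouse, and this bears on every comparison that uses isotype replicates 3 and 4. Of the 274 IgE clonotypes, 17 occurred in the IgE sequences of 2 mice, 14 of them in isotype replicates 3 and 4 and 3 in anti-CTLA-4 replicates 2 and 3. Before assignment, isotype replicate 4 had 22 IgE clonotypes with a count of 14085, and the 14 that it shared with replicate 3 held 14077 of that count, or 99.9%. The IGHV1-47 clonotype had a count of 26045 in replicate 3 and of 4301 in replicate 4. The IGHV1-19 clonotype had 8723 and 1193, and the IGHV10-1 clonotype 6418 and 1310. Assignment moved exact matches alone. Several IgE clonotypes that stayed with replicate 4 differed in 1 or 2 junction bases from IGHV1-19, IGHV1-47 or IGHV1-55 junctions of replicate 3. The values of replicate 4 after assignment may thus not be independent of replicate 3. The sharing was not limited to IgE, since isotype replicate 4 also shared 45.8% of its IgG1 clonotypes and 43.5% of its IgG2b clonotypes with replicate 3. In IgM it shared 0.791% with replicate 3, against 0.145% with isotype replicate 1 and 0.180% with isotype replicate 2. Anti-CTLA-4 replicate 4 shared 40.7% of its IgG1 and 27.2% of its IgG2b clonotypes with replicate 3. That mouse had no IgE clonotype, so IgE sharing could not be seen in it. Smaller overlaps linked some other neighbouring replicate numbers within a group. In IgG1, isotype replicate 2 shared 10% of its clonotypes with replicate 1, and anti-CTLA-4 replicate 3 shared 12.6% with replicate 2. Between the groups no IgG1 clonotype was shared. The source of the sharing was not tested, and results that rest on isotype replicates 3 and 4 are given below with and without them where that changes a call.

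The first question was how large the IgE compartment was in each mouse. IgE was detected in 9 of 10 mice, and its size differed far more between mice of one group than between the groups. The isotype replicates 1 to 5 had 3, 14, 92, 9 and 5 IgE clonotypes. The anti-CTLA-4 replicates 1 to 5 had 5, 95, 16, 0 and 35. One mouse in each group, isotype replicate 3 and anti-CTLA-4 replicate 2, together held 187 of the 274 clonotypes, or 68.2%, and 83.0% of the IgE count. As a share of heavy-chain clonotypes, these mice reached 0.291% (95% exact Clopper-Pearson interval 0.235 to 0.357) and 0.442% (0.358 to 0.540). Anti-CTLA-4 replicate 5 followed at 0.111% (0.0774 to 0.154) and replicate 3 at 0.0773% (0.0442 to 0.126). The other isotype mice and anti-CTLA-4 replicate 1 lay between 0.0120% and 0.0390%. Anti-CTLA-4 replicate 4 had 0 IgE clonotypes of 39492, which allows a share of up to 0.00760% by the rule of 3 counts of the total (upper limit of the exact interval 0.00934%).

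**Figure D1:**
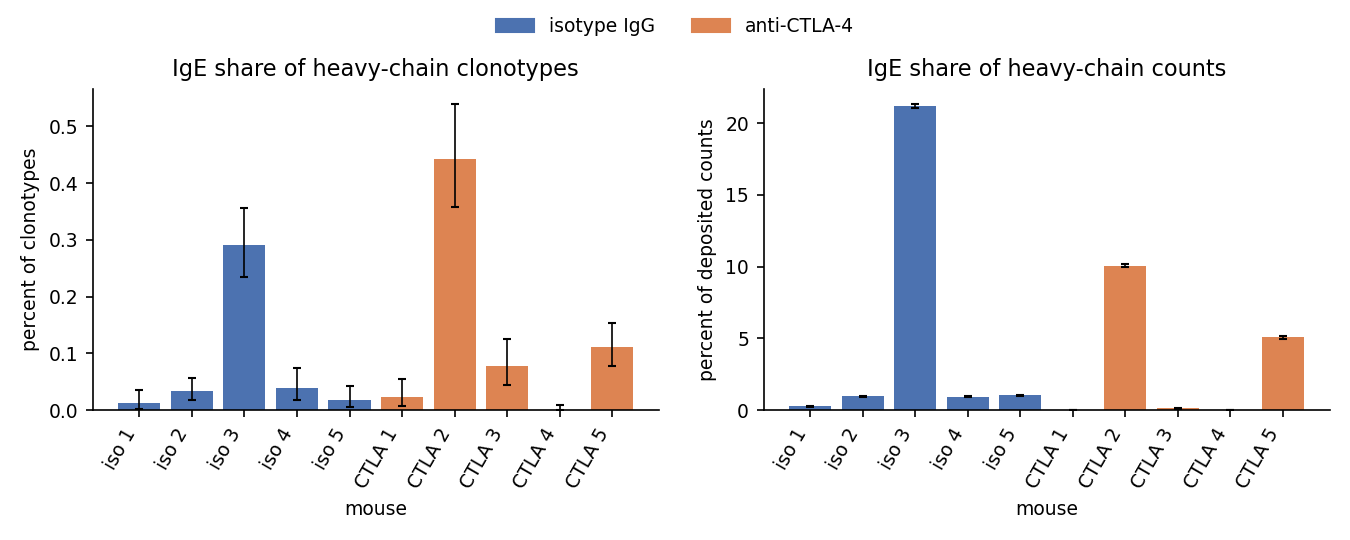
IgE as a percentage of heavy-chain clonotypes (left) and of deposited heavy-chain counts (right) in each mouse, isotype IgG mice (iso) in blue and anti-CTLA-4 mice (CTLA) in orange, with exact 95% binomial intervals. Isotype replicate 3 (0.291% of clonotypes, 21.2% of counts) and anti-CTLA-4 replicate 2 (0.442% and 10.1%) stand above the other mice, and anti-CTLA-4 replicate 4 is at 0.

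In 8 of the 9 mice with IgE its share of counts was above its share of clonotypes, and in anti-CTLA-4 replicate 1 it was below (0.00608% and 0.0236%). IgE held 0.263%, 0.977%, 21.2%, 0.943% and 1.02% of heavy-chain counts in isotype replicates 1 to 5. The corresponding shares in anti-CTLA-4 replicates 1 to 5 were 0.00608%, 10.1%, 0.121%, 0 and 5.07%. In the mouse at 0, a count of 0 of 182108 allows up to 0.00165% by the same rule (exact upper limit 0.00203%). Without assignment between mice, the share was 6.54% in isotype replicate 4, 21.0% in isotype replicate 3 and 9.75% in anti-CTLA-4 replicate 2. IgE counts exceeded those of IgG1 in isotype replicates 3, 4 and 5 and in anti-CTLA-4 replicate 5, at 2.51, 2.58, 5.81 and 1.96 IgE counts per IgG1 count. Isotype replicate 4 had 1394 IgE and 541 IgG1 counts after assignment, and 14085 and 10349 before it, a ratio of 1.36. In anti-CTLA-4 replicate 3, which had an IgG1 count of 26319, the ratio was 0.0138, and in anti-CTLA-4 replicate 1 it was 0.00367.

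The treatment comparison asked whether the IgE share differed under CTLA-4 blockade. Neither share differed beyond the spread between mice. IgE made up 0.131% ± 0.179 of clonotypes in anti-CTLA-4 mice and 0.0789% ± 0.119 in isotype mice (SD, n = 5 each, difference 0.0519 percentage points, two-sided exact permutation p = 0.548, 0.914 after Benjamini-Hochberg adjustment over 6 group tests). By count the shares were 3.06% ± 4.49 and 4.88% ± 9.13 (SD, n = 5 each, difference -1.83 points, exact permutation p = 0.730, adjusted 0.914). Each direction rested on 1 mouse. Without anti-CTLA-4 replicate 2 the clonotype difference was -0.0259 points, and without isotype replicate 3 the count difference was 2.25 points. The smallest p that 5 mice against 5 can give is 0.00794.

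Counts within the compartment were steeply unequal. Of the 274 clonotypes, 121 (44.2%) had a count of 1, and 105 of these were single-count members of a lineage with a more counted IgE clonotype. A lineage joined IgE clonotypes within a mouse that had equal junction length, at least 90% junction identity, and the same J gene and first-listed V gene. There were 123 lineages in all. Isotype replicates 1 to 5 had 3, 11, 29, 6 and 1 lineages, and anti-CTLA-4 replicates 1, 2, 3 and 5 had 5, 40, 11 and 17. The 58 clonotypes with a count of at least 100, a limit chosen after the values were seen, carried 98.7% of the IgE count. Of these, 17 were in isotype replicate 3, 19 in anti-CTLA-4 replicate 2 and 11 in anti-CTLA-4 replicate 5. In isotype replicates 1 and 5, 1 clonotype held 99.0% and 99.2% of the IgE count. In isotype replicate 4 the leading clonotype held 99.4% after assignment but 9.84% of the count before it, when the most counted clonotype held 33.9%. The leaders of isotype replicates 2 and 3 and anti-CTLA-4 replicates 2 and 5 held 42.8%, 40.5%, 22.7% and 21.4%, so several large IgE clonotypes coexisted there.

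Compared within each mouse, IgE clonotypes carried more counts than IgM clonotypes, a class that includes but is not limited to naive B cells. The mean of log2 counts per clonotype was 2.87 ± 1.14 for IgE and 0.50 ± 0.18 for IgM (SD, n = 8 mice with at least 5 IgE clonotypes). The difference was 2.37 ± 1.05 on the log2 scale, positive in 8 of 8 mice (two-sided exact sign-flip permutation p = 0.00781, the smallest that 8 mice can give, adjusted 0.0176 over 9 class tests). IgG1 clonotypes had a mean of 2.39 ± 0.54 (SD, n = 8), and IgE exceeded it by 0.48 ± 1.05 in 5 of 8 mice, which did not pass the test (exact sign-flip permutation p = 0.227, adjusted 0.408). Without isotype replicates 3 and 4 the difference from IgM was 2.64, which missed the adjusted threshold at the smallest p of 6 mice (exact sign-flip permutation p = 0.0312).

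The next question was which other classes carried the rearrangements of IgE. A relative was a sequence of another class in the same mouse that met these lineage criteria against the IgE clonotype. An IgG1 relative was found for 237 of 274 IgE clonotypes, or 86.5%. Of these, 161 also had an IgM or IgD relative and 76 had none. A relative in IgM or IgD without one in IgG1, the pattern of most interest for direct switching, was found for 19 clonotypes (6.93%), which held 1.01% of the IgE count. Another 3 had a relative in other switched classes alone, and 15 had no relative, with counts of at most 31. Counted by lineage, 89 of 123 (72.4%) had an IgG1 relative of any of their clonotypes, and 16 had an IgM relative without any in IgG1. Not all of the 19 had IgM with the identical junction. IgM had 14638 to 30139 clonotypes per mouse after assignment, and the search for IgM relatives was not run from other classes. How often unrelated IgM met the criteria was thus not tested. A shared rearrangement does not give the order in which the classes were made, and a class not found may lie below the depth of the library.

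**Figure D2:**
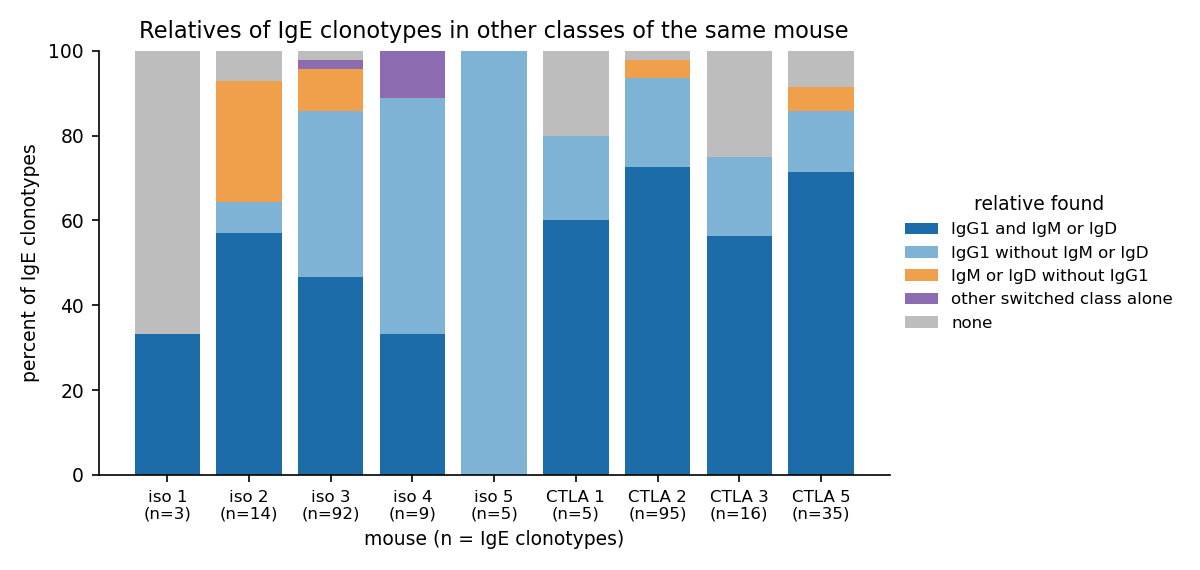
Percentage of IgE clonotypes in each mouse (isotype, iso, and anti-CTLA-4, CTLA, with the number of IgE clonotypes) by the classes in which a relative was found. The shares with an IgG1 relative, both blues together, run from 33.3% in isotype replicate 1 with 3 clonotypes to 100% in isotype replicate 5 with 5 clonotypes of 1 lineage.

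The share of IgE clonotypes with an IgG1 relative was 64.3%, 85.9%, 88.9% and 100% in isotype replicates 2 to 5. It was 80%, 93.7%, 75% and 85.7% in anti-CTLA-4 replicates 1, 2, 3 and 5. Isotype replicate 1 had 1 of 3. The group means of 83.6% ± 8.02 in anti-CTLA-4 and 84.8% ± 14.9 in isotype mice (SD, n = 4 each) differed by -1.16 points (exact permutation p = 0.914, adjusted 0.914), within the spread between mice. The sign of that difference was not stable. It became 21.2 points when the junctions had to be identical.

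To show what the same search finds from other switched classes, it was run from IgG2b and IgA clonotypes of the same mice. IgG2b is another IgG class, and IgA is the class of mucosal surfaces. An IgG1 relative was found for 84.2% ± 11.1 of IgE, 60.5% ± 7.36 of IgG2b and 21.2% ± 11.5 of IgA clonotypes (SD, n = 8). The IgE share was above the IgG2b share in 8 of 8 mice by 23.7 ± 11.02 points and above the IgA share in 8 of 8 by 63.0 ± 12.4 points (exact sign-flip permutation p = 0.00781 each, adjusted 0.0176). The difference from IgG2b was 11.9 points when identical junctions were required, and it then did not pass the test. With isotype replicate 1 and its 3 clonotypes added it was 17.6 points and did not pass, and without isotype replicates 3 and 4 it was 19.8 points and did not pass with the 6 mice left.

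**Figure D3:**
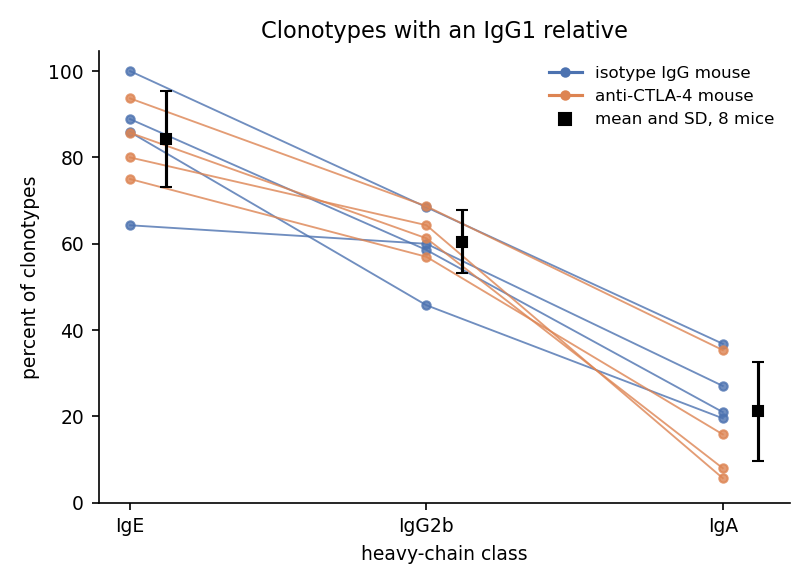
Percentage of IgE, IgG2b and IgA clonotypes with an IgG1 relative in the 8 mice with at least 5 IgE clonotypes; each line is a mouse and black squares give the mean with SD. The IgE share, 84.2% on average, lies above the IgG2b share of the same mouse in 8 of 8 mice, by little in isotype replicate 2 (64.3% and 60%).

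The large IgE clonotypes mostly had IgG1 with the identical rearrangement. Of the 58 with a count of at least 100, 54 had an IgG1 relative and 52 had IgG1 with the same junction. IgG2b with the same rearrangement was present for 49, IgG2c for 33, IgM for 38, IgG3 for 19 and IgA for 1. For 51 of them IgG1 shared the full V call as well, and the ratio of IgE to IgG1 count then ranged from 0.110 to 395 with a median of 2.20. IgE was the more counted class in 37 of the 51. In 49 of the 58, the most counted IgE sequence was also found letter for letter in IgG1, from the shared 5′ end to the end of the junction.

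The 5 most counted clonotypes show the range. The IGHV1-47 clonotype of isotype replicate 3 had 26045 IgE, 5587 IgG1, 1218 IgG2b, 463 IgG2c and 4 IgM counts, so IgE was 78.1% of the rearrangement. Its V region had 0 mismatches over 291 aligned bases. The IGHV9-3 clonotype had 9466 IgE and 3133 IgG1 counts and no IgM, with 1 mismatch over 293 bases. The IGHV1-19 clonotype had 8723 IgE and 4713 IgG1 counts, with 2147 in IgG2b. These 3 were IgE-dominated, whereas the IGHV10-1 clonotype was near balance at 6418 IgE and 6822 IgG1 counts. The IGHV1-78 clonotype of anti-CTLA-4 replicate 2 was IgG1-dominated at 5513 IgE and 25607 IgG1 counts.

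**Figure D4:**
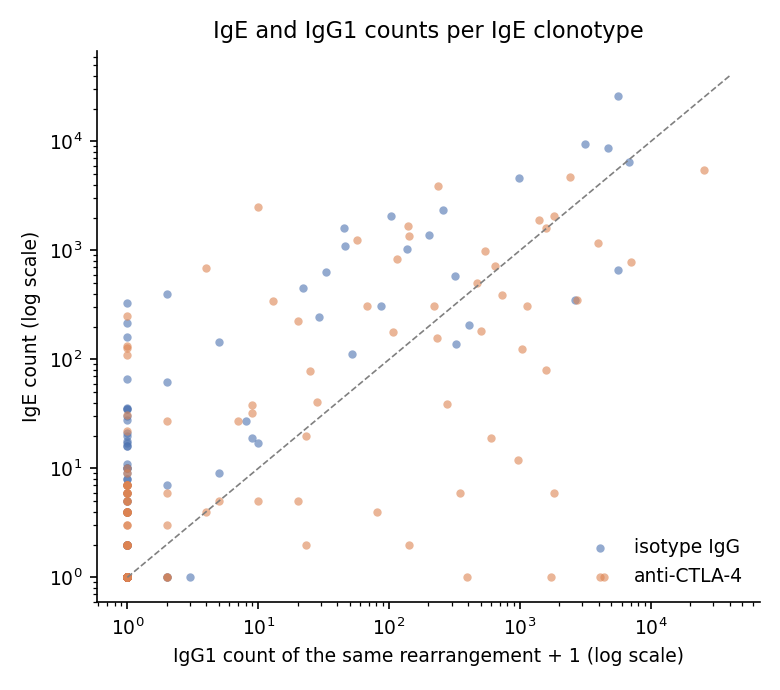
IgE count against IgG1 count plus 1 of the same rearrangement for the 274 IgE clonotypes, on log axes, with the line of equal counts dashed; isotype mice are blue and anti-CTLA-4 mice orange. Most clonotypes with high IgE counts lie above the line, up to 26045 IgE and 5587 IgG1 counts, while IGHV1-78 (5513 and 25607) lies below it.

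The leaders of the smaller compartments differed in the same way. In isotype replicate 1 the IGHV8-12 clonotype had 666 IgE counts beside 5648 IgG1, 4776 IgG2b and 355 IgM counts, 5.69% of the rearrangement. In isotype replicate 2 the IGHV1-50 clonotype had 1028 IgE, 136 IgG1, 207 IgM, 164 IgG2b and 221 IgG2c counts. In isotype replicate 5 the IGHV1-64 clonotype had 1608 IgE, 44 IgG1, 1 IgG2b and 0 IgM counts. IgE was thus 97.3% of that rearrangement, and the other 4 IgE clonotypes of the mouse belonged to its lineage. In anti-CTLA-4 replicate 5 the IGHV5-9 clonotype had 2495 IgE and 9 IgG1 counts, with 171 in IgG2b and 125 in IgG2c. In anti-CTLA-4 replicate 1 the IGHV1-69 clonotype had 6 IgE counts within a rearrangement of 14251, mostly IgG2b (6479) and IgG2c (4233). Over all mice 8 IgE clonotypes, with 17 counts in all, made up under 1% of their rearrangement. In anti-CTLA-4 replicate 3 the IGHV14-2 clonotype had 133 IgE counts and none in IgG1 under that V call, and its IgG1 relative was found through the neighbouring call that joins IGHV14-1 and IGHV14-2.

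Clonotypes with an IgM relative and none in IgG1 were small by comparison, and the 4 with a count of at least 100 are shown because they are the candidates without an IgG1 counterpart at this depth.
IGHV1-9 with IGHJ3, isotype replicate 3: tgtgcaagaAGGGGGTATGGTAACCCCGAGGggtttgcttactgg
IGHV9-3 with IGHJ4, anti-CTLA-4 replicate 5: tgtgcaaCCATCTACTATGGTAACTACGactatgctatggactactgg
IGHV1-80 with IGHJ2, isotype replicate 3: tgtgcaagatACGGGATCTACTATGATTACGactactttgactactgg
IGHV1-85 with IGHJ1, anti-CTLA-4 replicate 2: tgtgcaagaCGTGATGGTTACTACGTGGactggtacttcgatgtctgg
The IgE counts were 330, 249, 214 and 110 in that order. IgM of the same rearrangement had 1, 23, 16 and 7 counts, and all 4 V regions had 0 mismatches. The IGHV9-3 clonotype also had 10 IgG2b counts. The fifth of this kind was an IGHV2-2 clonotype of isotype replicate 3 with 35 IgE and 22 IgM counts and 1 mismatch. By mouse, the share of IgE clonotypes with IgM and no IgG1 relatives was 28.6% in isotype replicate 2 (4 of 14), 9.78% in isotype replicate 3, 5.71% in anti-CTLA-4 replicate 5 and 4.21% in anti-CTLA-4 replicate 2. It was 0 in the other mice. The group means, 9.59% ± 13.5 in isotype and 2.48% ± 2.93 in anti-CTLA-4 mice (SD, n = 4 each), did not differ beyond that spread (-7.11 points, exact permutation p = 0.543, adjusted 0.914).

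Mutation of the V region was measured as mismatches to germline per 100 aligned V bases in the most counted sequence of each clonotype. IgE was lightly mutated, and its large clonotypes mostly carried no mismatch. Of the 274 clonotypes, 110 had 0 mismatches and 80 had 1, and 17 had 5 or more. Clonotypes whose most counted sequence had 0 mismatches held 83.8% of the IgE count, which includes their other sequences. Among the 58 clonotypes with a count of at least 100, 47 had 0, 6 had 1 and 5 had more, up to 8. Per mouse the mean was 0.341, 0.494, 0.826 and 1.84 mismatches per 100 bases in isotype replicates 2 to 5. It was 0.272, 0.358, 0.169 and 0.341 in anti-CTLA-4 replicates 1, 2, 3 and 5. Among these 8 mice, each with at least 5 IgE clonotypes, isotype replicate 5 was the highest, with all 5 clonotypes from 1 lineage, and isotype replicate 4 followed, where 8 of 9 clonotypes had a count of 1. Several of those 8 were the near variants of replicate 3 junctions described above. The 3 IgE clonotypes of isotype replicate 1 averaged 1.25.

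Within mice IgE exceeded IgM, the least mutated of the 5 classes compared, and did not differ detectably from IgG1. The means over 8 mice were 0.580 ± 0.544 for IgE, 0.137 ± 0.0158 for IgM, 0.576 ± 0.180 for IgG1, 0.740 ± 0.317 for IgG2b and 0.862 ± 0.193 for IgA (SD, n = 8). IgE was above IgM in 8 of 8 mice by 0.443 ± 0.547 (exact sign-flip permutation p = 0.00781, adjusted 0.0176). IgE and IgG1 differed by 0.00343 ± 0.432, with IgE higher in 2 of 8 mice (exact sign-flip permutation p = 0.984, adjusted 0.984). Clonotypes without any mismatch made up 39.2% ± 23.9 of IgE, 81.9% ± 1.51 of IgM, 51.3% ± 11.7 of IgG1 and 36.7% ± 9.61 of IgA (SD, n = 8). The difference from IgM was 0.133 over clonotypes with a count of at least 2 and 0.253 when each lineage counted once. Neither value passed the test, nor did that without isotype replicates 3 and 4 (0.415), and in the first case the 5 mice that qualified cannot give p below 0.0625 in an exact test.

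**Figure D5:**
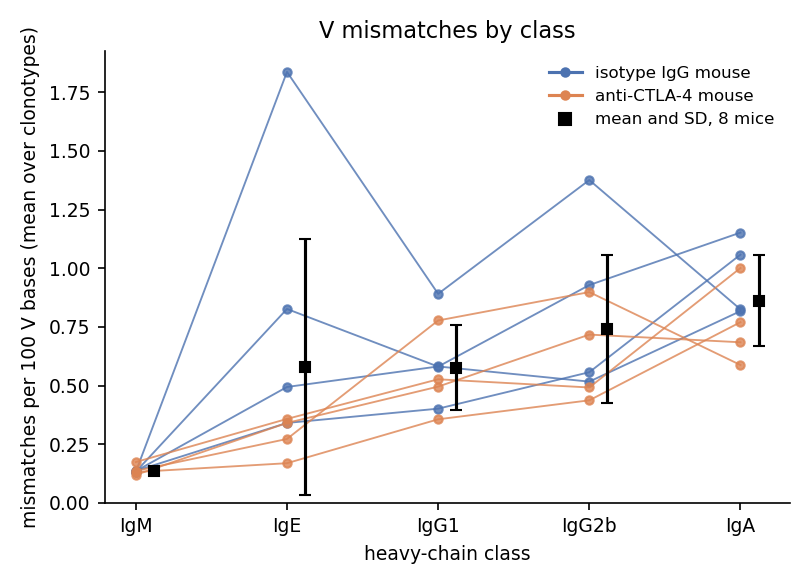
Mean V mismatches per 100 aligned bases over the clonotypes of 5 heavy-chain classes in the 8 mice with at least 5 IgE clonotypes; each line is a mouse and black squares give the mean with SD. IgE lies above IgM in each of the 8 mice, and the widest spread is in IgE, from 0.169 in anti-CTLA-4 replicate 3 to 1.84 in isotype replicate 5.

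IgE and IgG1 of the same rearrangement mostly carried the same number of mismatches. Of 87 IgE clonotypes whose rearrangement had an IgG1 sequence with enough aligned bases, 69 had equal values, 11 had more in IgE and 7 had more in IgG1. Among those with a count of at least 100, 46 of 51 were equal. Most of the equal values were 0 in both classes, so they hold no shared mismatch. The IGHV1-64 clonotype of isotype replicate 5 had 5 mismatches over 294 bases, or 1.70 per 100, and all 5 were shared with the most counted IgG1 sequence. An IgE clonotype of anti-CTLA-4 replicate 2, whose V call joins IGHV14-1 and IGHV14-2, had 157 IgE and 233 IgG1 counts. It had 8 mismatches over 291 bases and shared all 8 with IgG1. The same junction also occurred in that mouse under the call IGHV14-2, with 2 IgE and 22 IgG1 counts. Under that call both classes had 0 mismatches, over 291 bases in IgE. Whether the 8 were mutations was not tested. In the other direction, the IGHV8-8 clonotype of anti-CTLA-4 replicate 2 had 342 IgE counts and 0 mismatches in IgE. Its most counted IgG1 sequence had 1.34 per 100, among 12 IgG1 counts in all. The unmutated IgE sequence was itself also found in IgG1.

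All 5 IgE clonotypes with most mismatches, 2.74 to 3.40 per 100 bases, had the joint call IGHV14-1 and IGHV14-2, and 3 of them had counts of 4 or fewer. Mismatches under this call were also high in IgM, at 1.22 per 100 bases with 47.9% of IgM clonotypes at 0, against 0.0625 and 86.2% for IGHV9-3. The IgE clonotypes of the joint call averaged 0.956. The joint call was not alone in this. In IgM, IGHV1-19 averaged 0.840 with 81.2% at 0, IGHV1-69 0.413 with 0% at 0, and IGHV1-56 3.11 with 58.4% at 0. Whether mismatches under these calls were mutations or differences from the germline reference was not tested.

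Between the groups, mean IgE mismatches were 0.285 ± 0.0857 in anti-CTLA-4 and 0.874 ± 0.673 in isotype mice (SD, n = 4 each), a difference of -0.590 that did not pass (exact permutation p = 0.0857, adjusted 0.514). The groups overlapped, since isotype replicate 2 (0.341) lay below anti-CTLA-4 replicate 2 (0.358). Without isotype replicate 5 the difference was -0.269. Over clonotypes with a count of at least 2, which left 2 and 3 mice, it was -0.131.

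A family of IGHV9-3 junctions in isotype replicates 3 and 4 differed at a single position and is shown because the mice ranked its members differently. Here capitals mark the variable base, at position 22 counted from 1 at the first base of the junction.
G at this position: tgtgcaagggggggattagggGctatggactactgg
A, substitution G22A: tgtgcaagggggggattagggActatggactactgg
T, substitution G22T: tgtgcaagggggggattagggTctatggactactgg
C, substitution G22C: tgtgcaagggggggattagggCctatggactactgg
In isotype replicate 3 the IgE counts were 9466 for G, 4587 for A, 102 for T and 36 for C. In isotype replicate 4 they were 4778, 1, 1386 and 1. The T form thus ranked behind G alone in replicate 4 and behind G and A in replicate 3, and it was the only one of the 4 with more counts in replicate 4. IgG1 counts in replicate 3 were 3133, 980, 97 and 0, and in replicate 4 they were 678, 101, 201 and 0. No member had an IgM count in either mouse. The most counted IgE sequences of the family had 0 or 1 V mismatches. A similar pair occurred for IGHV1-19, where the substitution G28A parted a junction with 9916 IgE counts over all mice from one with 638.

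V gene use in IgE was spread over 46 V calls, with a few made prominent by large lineages. The IGHV1 family, the largest in the mouse, supplied 151 of 274 IgE clonotypes (55.1%) and 53.7% of lineages, against 64.1% of IgM and 56.2% of IgG1 clonotypes pooled over mice. Per mouse its share was 63.7% ± 24.1 of IgE and 64.0% ± 0.667 of IgM clonotypes (SD, n = 8), a difference of -0.296 points (exact sign-flip permutation p = 0.977, adjusted 0.984). The IgE share ranged from 21.4% in isotype replicate 2 to 100% in isotype replicate 5, far wider than in IgM.

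Of single genes, IGHV9-3 had the most IgE clonotypes, 46 (16.8%) in 12 lineages and 5 mice, with 21.6% of the IgE count. It made up 9.76% of IgE lineages, 3.77% of IgM and 6.91% of IgG1 clonotypes, but isotype replicate 3 had 22 of the 46 and anti-CTLA-4 replicate 2 had 18. IGHV1-19 followed with 25 clonotypes in 7 lineages, 15 of them in isotype replicate 3. The joint call of IGHV14-1 and IGHV14-2 had 20 in 11 lineages and 5 mice. IGHV1-55 had 16 in 5 lineages, and IGHV10-1 had 12 in 3. IGHV1-47 had 11 clonotypes and the largest share of the IgE count, 24.5%, although it made up 0.319% of IgM clonotypes. IGHV1-78 also had 11, of which 10 were in anti-CTLA-4 replicate 2, and the joint call of IGHV1-62-2 and IGHV1-71 had 10 in 1 lineage of that mouse. Single V genes were not tested, because 1 or 2 mice decided most of their numbers. Of the J genes, IGHJ4 supplied 38.3% of IgE clonotypes and 31.7% of lineages, against 27.8% of IgM clonotypes. IGHJ2 supplied 21.9% and 28.5%, against 32.1% of IgM.

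The length of CDR3, the most variable antigen-contacting loop of the heavy chain, did not set IgE apart. It ranged from 6 to 20 amino acids over IgE clonotypes, with a median of 12, and was not called for 3 clonotypes. Isotype replicates 2 to 5 averaged 11, 11.2, 10.2 and 16 amino acids, and anti-CTLA-4 replicates 1, 2, 3 and 5 averaged 10.2, 11.9, 13.3 and 12.0. The value of 16 belonged to the single lineage of isotype replicate 5. Over the 8 mice IgE averaged 12.0 ± 1.92, IgM 11.8 ± 0.0381 and IgG1 11.8 ± 0.294 (SD, n = 8). IgE exceeded IgM by 0.184 and IgG1 by 0.179, each in 4 of 8 mice (exact sign-flip permutation p = 0.828 and 0.844, adjusted 0.984 each). The groups averaged 11.9 ± 1.28 in anti-CTLA-4 and 12.1 ± 2.64 in isotype mice (SD, n = 4 each, difference -0.225, exact permutation p = 0.914, adjusted 0.914). Without isotype replicate 5 the difference was 1.08 and also did not pass.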

How the data were processed

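Per the labels' protocols, RNA from whole cells of dissociated nodes was made into libraries with a mouse B cell receptor kit that carries molecular identifiers. The authors deposited 1 table of assembled sequences per mouse, with a whole-number count per sequence per the file headers. The sources used here give no aligner, germline set or version, and do not say how the identifiers were used, and nothing in the files points to a normalization of the counts.

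Productive heavy chains were grouped by V call (joint names kept, 34 IgE clonotypes), J gene, junction and constant gene. Sequences without a constant gene (0.178%) were left out. V mismatches were counted over at least 200 aligned bases. Per-mouse means used mice with at least 5 IgE clonotypes. Tests were two-sided exact permutation tests over mice, with Benjamini-Hochberg adjustment over 6 group tests and over 9 class tests and a threshold of 0.05. The counting of clonotypes, relatives and mismatches was tried on simulated repertoires, and the permutation tests on fixed values (Python 3.11.15, NumPy 2.4.6, pandas 2.3.3, SciPy 1.17.1). Named were the 8 V genes with most IgE clonotypes, each mouse's leading clonotype, and the 5 clonotypes with most counts, most mismatches, presence in several mice, an IgG1 relative, or an IgM but no IgG1 relative; others named here were chosen after their values were seen. The members, lists and rules were chosen with earlier results of these data known. Replicates are separate mice, per the labels. Alternatives were a minimum count, other assignments, V names, junction identities and clonotype minima, medians, the replicate number as a block and each mouse left out; lineages, any shared V gene and leaving out isotype replicates 3 and 4 together were added after the data were seen.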

Additional observations from a re-analysis of the deposited data

Results flagged for a closer look

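Of 20 sets of values checked for a mouse apart from the rest of its group, a check that chance meets in about 1 in 20 groups, 4 had one. Isotype replicate 3 stood apart from the other 4 isotype mice in the IgE share of clonotypes, at 0.291%, and in the IgE share of counts, at 21.2%. Anti-CTLA-4 replicate 2 stood apart in the IgE share of clonotypes, at 0.442%. Isotype replicate 5 stood apart in mean IgE CDR3 length, at 16 amino acids, which was the length of its only IgE lineage. The flags are not independent, since isotype replicate 3 met the check in both shares. The chance rate may not hold for shares spread so unevenly, and an excess over it was not tested.

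The difference in V mismatches between IgE and IgG1 was set against the treatment groups and did not pass after adjustment. It was 0.261 per 100 bases in isotype mice and -0.254 in anti-CTLA-4 mice (n = 4 each), a difference of -0.515 (two-sided exact permutation p = 0.0286, the smallest that 4 mice against 4 can give, and 0.257 after Benjamini-Hochberg adjustment over 9 such differences). IgE was below IgG1 in all 4 anti-CTLA-4 mice and above it in isotype replicates 4 and 5 alone. Replicate 4 had 9 IgE clonotypes, 8 of them with a count of 1, and replicate 5 had 1 lineage.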

How the results depend on the processing

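The differences of IgE from IgM in V mismatches and log2 counts, and from IgG2b and IgA in the share with an IgG1 relative, kept their direction in every alternative run and passed with any 1 mouse left out (0.262 to 0.5004, 2.12 to 2.62, 21.3 to 26.4 and 60.9 to 66.7). They were no longer called over clonotypes with a count of at least 2 (0.133, 4.07, 17.8 and 59.9), with at least 10 IgE clonotypes per mouse (0.201, 2.93, 22.4 and 59.7) or without isotype replicates 3 and 4 together (0.415, 2.64, 19.8 and 61.6); these settings leave 5, 5 and 6 mice, whose smallest exact permutation p is 0.0625, 0.0625 and 0.0312 before adjustment. V mismatches against IgM also missed the threshold as medians (0.383) and by lineage (0.253), and the IgG1 relatives against IgG2b with identical junctions (11.9) and with any mouse that had IgE (17.6); the cause was not tested.

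Differences that had not passed changed sign as follows, and none passed in any alternative. With 1 mouse left out, the group differences ranged from -0.0259 to 0.105 points for the share of clonotypes, -3.58 to 2.25 for the share of counts, -0.848 to 1.08 amino acids for CDR3 length and -7.99 to 3.92 points for IgG1 relatives. CDR3 length against IgM ranged from -0.389 to 0.438 and against IgG1 from -0.426 to 0.484, V mismatches against IgG1 from -0.131 to 0.0761, and the IGHV1 share against IgM from -5.61 to 5.74. Without isotype replicates 3 and 4 the count share became 2.30, IgG1 relatives 1.46, mismatches against IgG1 -0.0218 and the IGHV1 share 3.04. By lineage, the group difference in CDR3 length became 0.784 and in IgG1 relatives 6.90, CDR3 length against IgM -0.330 and against IgG1 -0.461, and mismatches against IgG1 -0.0356. With a count of at least 2 the CDR3 difference between groups was 0.972, IgG1 relatives 9.99 and mismatches against IgG1 -0.0909. With at least 10 clonotypes these were 1.35, 9.72 and -0.132. Without assignment between mice, IgG1 relatives became 0.143, mismatches against IgG1 -0.0131 and the IGHV1 share 0.480. Assignment by counts over all classes gave mismatches against IgG1 of -0.0316, the first-listed V gene an IGHV1 share of 0.388, leaving out IgE under 1% of its rearrangement a CDR3 difference of 0.420, at least 1 IgE clonotype IgG1 relatives of 9.12, and identical junctions 21.2.

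With the replicate number as a block, IgG1 relatives differed by 1.41 points over 3 pairs, mismatches by -0.601, and neither share passed. In IgM V gene use the numbers were not seen to pair the mice. Deviations correlated at -0.177 to 0.244, and 2 of 10 mice correlated best with their own number. Whether the numbers mark a batch in other respects was not tested.

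The number of IgE clonotypes per mouse, 0 to 95, limits the precision.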

Other observations

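The IgE clonotypes described here were picked after their counts were seen, to show how the class that accompanied IgE varied among mice. In anti-CTLA-4 replicate 2, the clonotype with the joint call IGHV1-62-2 and IGHV1-71 had 4670 IgE, 2424 IgG1 and 153 IgG2b counts, and an IGHV9-3 clonotype with IGHJ2 had 3912 IgE and 235 IgG1 counts. An IGHV14-1 clonotype of the same mouse was mostly IgG1, at 776 IgE and 7035 IgG1 counts, and so was an IGHV1-55 clonotype at 1161 and 3931. In anti-CTLA-4 replicate 5, an IGHV1-55 clonotype had 1664 IgE counts beside 138 IgG1, 2181 IgG2b and 5981 IgG2c counts, and an IGHV1-19 clonotype had 727 IgE beside 641 IgG1, 2143 IgG2b and 2095 IgG2c counts. IgE in that mouse thus also sat in rearrangements led by IgG2b and IgG2c, the latter a class usually linked to interferon-gamma rather than IL-4. An IGHV3-6 clonotype there had 693 IgE, 112 IgM and 3 IgG1 counts. In anti-CTLA-4 replicate 1, a single IgE count of IGHV1-50 with IGHJ2 belonged to a rearrangement with 59873 IgG2c, 38985 IgG2b and 1714 IgG1 counts.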
